A study of Homo sapiens with 6 samples.

Results

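The mitochondrial ribosomal proteins are the protein subunits of the ribosome inside mitochondria, and their nuclear genes carry symbols starting with MRPL (large subunit) or MRPS (small subunit). The members were the genes of all array probe sets that the platform annotation gives a single symbol of this kind, with pseudogenes left out. This rule found 75 genes, 48 MRPL and 27 MRPS, measured by 140 of the 54675 probe sets, among 19775 single-symbol genes on the array. A further probe set for the pseudogene MRPL45P2 and another for the antisense transcript MRPL20-AS1 were left out, and MRPS24 and MRPL53 have no member entry because their probe sets name a second gene. The samples were 6 total RNA preparations from DMS-53, a human small cell lung cancer line, each hybridized to an Affymetrix U133 Plus 2.0 array. A pair of arrays, numbered set 1 and set 2 in the labels, came from cells in control medium, a pair from cells in 250 µM of the iron chelator DFO (desferrioxamine), and a pair from cells in 25 µM of the thiosemicarbazone chelator Dp44mT, all for 24 h. Separate cultures are not named in the labels for the arrays of a group, and the p-values then measure a spread that may be technical only.

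Mitochondria keep a small genome that encodes core subunits of the respiratory chain complexes and of ATP synthase, and a dedicated ribosome of bacterial ancestry translates these messages. Its RNAs are made inside the organelle, whereas every protein subunit is encoded in the nucleus, translated in the cytosol and imported. Many subunits have bacterial homologues and others exist only in mitochondria, and structural work has placed iron-sulfur clusters at a few of the protein contacts. DFO is a microbial siderophore in clinical use that enters cells poorly, and Dp44mT enters cells more readily. Messages for these proteins are commonly transcribed from promoters without a TATA box, with sites for ETS family factors such as GABP (also called NRF2 in this field), for NRF1 and for YY1.

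To show what the genes share at their start sites, the bases before the start of members at both ends of the response are printed here. They are RefSeq sequences of the GRCh38.p14 build, the 250 bases before the start, read 5′ to 3′ on the gene's strand, with the ETS core CCGGAAG in capitals on either strand (CTTCCGG is its reverse complement). MRPL51 (chr12:6493263-6493512, minus strand) and MRPS23 (chr17:57850045-57850294, minus strand) were among the members furthest below control. MRPS18A (chr6:43687792-43688041, minus strand) and MRPS30 (chr5:44808697-44808946, plus strand) were the members furthest above it.
MRPL51: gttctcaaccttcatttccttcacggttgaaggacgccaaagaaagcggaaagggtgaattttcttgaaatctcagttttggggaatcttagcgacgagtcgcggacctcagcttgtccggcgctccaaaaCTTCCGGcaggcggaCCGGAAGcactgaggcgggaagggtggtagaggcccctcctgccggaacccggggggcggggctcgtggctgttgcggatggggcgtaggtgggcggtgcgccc
MRPS23: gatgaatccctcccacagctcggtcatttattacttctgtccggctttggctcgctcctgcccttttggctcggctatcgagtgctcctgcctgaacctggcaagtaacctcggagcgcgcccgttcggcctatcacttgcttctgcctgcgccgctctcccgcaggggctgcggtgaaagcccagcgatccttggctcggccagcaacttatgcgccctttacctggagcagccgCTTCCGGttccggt
MRPS18A: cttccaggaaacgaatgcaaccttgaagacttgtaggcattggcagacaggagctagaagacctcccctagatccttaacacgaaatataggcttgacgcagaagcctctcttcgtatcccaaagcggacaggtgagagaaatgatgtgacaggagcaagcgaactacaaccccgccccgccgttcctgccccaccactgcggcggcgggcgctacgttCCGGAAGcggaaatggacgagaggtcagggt
MRPS30: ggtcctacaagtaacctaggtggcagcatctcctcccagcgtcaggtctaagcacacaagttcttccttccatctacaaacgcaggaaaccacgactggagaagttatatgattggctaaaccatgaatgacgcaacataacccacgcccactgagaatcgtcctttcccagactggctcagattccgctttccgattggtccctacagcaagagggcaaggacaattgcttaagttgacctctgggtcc
The ETS core stands in the sequences of MRPL51, MRPS23 and MRPS18A, so it was found at genes on both sides of control. It was not found in the 250 bases before the start of MRPS30. MRPL50, which had the lowest value in both chelators and is not printed, also held none in those bases.

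Promoter entries were matched for 67 of the 75 members, and motifs were counted on both strands from 250 bases before to 50 after the start. The ETS core was in 28 of the 67 member promoters (41.8%), against 14.2% of 15842 promoters of protein-coding genes of the same length. The YY1 core AAGATGG was in 22 (32.8%, against 6.40%), and 41 members (61.2%, against 19.4%) held one or the other. The NRF1 motif GCGCATG (one arm of its palindromic site) was in 7 (10.4%, against 5.87%), the TATA box TATAAA in 2 (2.99%, against 9.63%), the E-box CACGTG in 6 (8.96%, against 8.88%) and the hypoxia response core ACGTGC in 6 (8.96%, against 7.76%). The E-box and the hypoxia core share letters and can overlap. Members with the ETS core had a median log2 difference from control of -0.49 in DFO and -0.45 in Dp44mT, and the 39 without it had -0.33 and -0.37. For the YY1 core the medians were -0.45 and -0.40 with it, and -0.40 and -0.42 without it. In MRPL50, MRPL51, MRPS18A and MRPS30 the YY1 core was in this window but not within the 250 bases before the start, so it reached past the start. These counts describe letters in a window and not binding.

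All 75 genes were over the floor set for low values, which 133 of their 140 probe sets passed. Array brightness differed: the median deposited intensity was 88.9 and 88.8 in control, 85.5 and 63.0 in DFO and 83.6 and 49.9 in Dp44mT (set 1, then set 2), so the set 2 chelator arrays were the dimmest. Levels below are log2(intensity + 16) after quantile normalization over the 6 arrays. The neuroendocrine markers known for small cell lung cancer lines were present, with CHGA at 368 to 1049 and SYP at 184 to 925 on the scale of deposited intensity, and their 13 tested genes summed to 39209 and 44593 in control, 38900 and 23495 in DFO and 33709 and 17653 in Dp44mT. Of 15 fibroblast markers 12 were tested, with a summed intensity of 2171 to 2711 in control, 2816 to 2831 in DFO and 2481 to 2603 in Dp44mT, and SPARC, PDGFRB and FAP were below the floor. Their median log2 difference from control was -0.26 in set 1 and 0.53 in set 2 for DFO, and 0.01 and 0.65 for Dp44mT. Their median log2 level was 7.72 and 6.41 in control, 7.61 and 8.46 in DFO and 7.57 and 8.45 in Dp44mT (set 1, then set 2). By deposited intensity COL1A2, COL3A1, DCN, POSTN and FN1 were lowest on the set 2 control array, and the other tested fibroblast markers were not. Leukocyte markers summed to 637 to 809 in control, 706 to 920 in DFO and 732 to 902 in Dp44mT over 6 of 10 genes, with PTPRC and TYROBP below the floor. Endothelial markers summed to 730 to 1210, 1201 to 1544 and 1086 to 1432 over 7 of 10 genes, with CDH5, CLDN5 and ESAM below it. The set 2 control array, used in both comparisons with control, had the lowest sum of the fibroblast, leukocyte and endothelial lists. The part of array brightness or of these markers in the results was not tested.

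In DFO, most mitochondrial ribosomal protein genes had lower values than in control, by a small amount at the median. Of the 75 members 68 (90.7%) had a value below control, against 53.5% of all 16868 genes tested. The count was 73 on the unscaled values, 72 with array medians subtracted and 70 with linear scaling. The medians over all genes were -0.32, -0.10 and -0.01 there, and the chelator arrays were dimmer as deposited. On the quantile normalized values the members' median log2 difference was -0.40, a ratio of 0.758. It was -0.03 over all genes and -0.05 over the 8301 genes in the members' range of mean level. The members' median was -0.27 between the set 1 arrays and -0.48 between the set 2 arrays. Of the 75 members 62 were lower in both sets, 5 higher in both and 8 opposed, against 6279, 3885 and 6698 of all 16868 genes. The set number did not pair control arrays with chelator arrays, as described below. In bulk RNA, fewer cells of a type and less RNA per cell cannot be told apart. None of the members passed the test across all genes (limma, Benjamini-Hochberg adjusted p under 0.05), by which 1.04% of all genes were called higher and 0.0593% lower. At an unadjusted p under 0.05 there were 20 members (26.7%), 19 of them lower (25.3%), against 13.3% and 7.59% of all genes. In 56 members (74.7%) both DFO arrays lay below both control arrays, against 30.0% of all genes, and in 3 both lay above, against 17.1%.

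**Figure D1:**
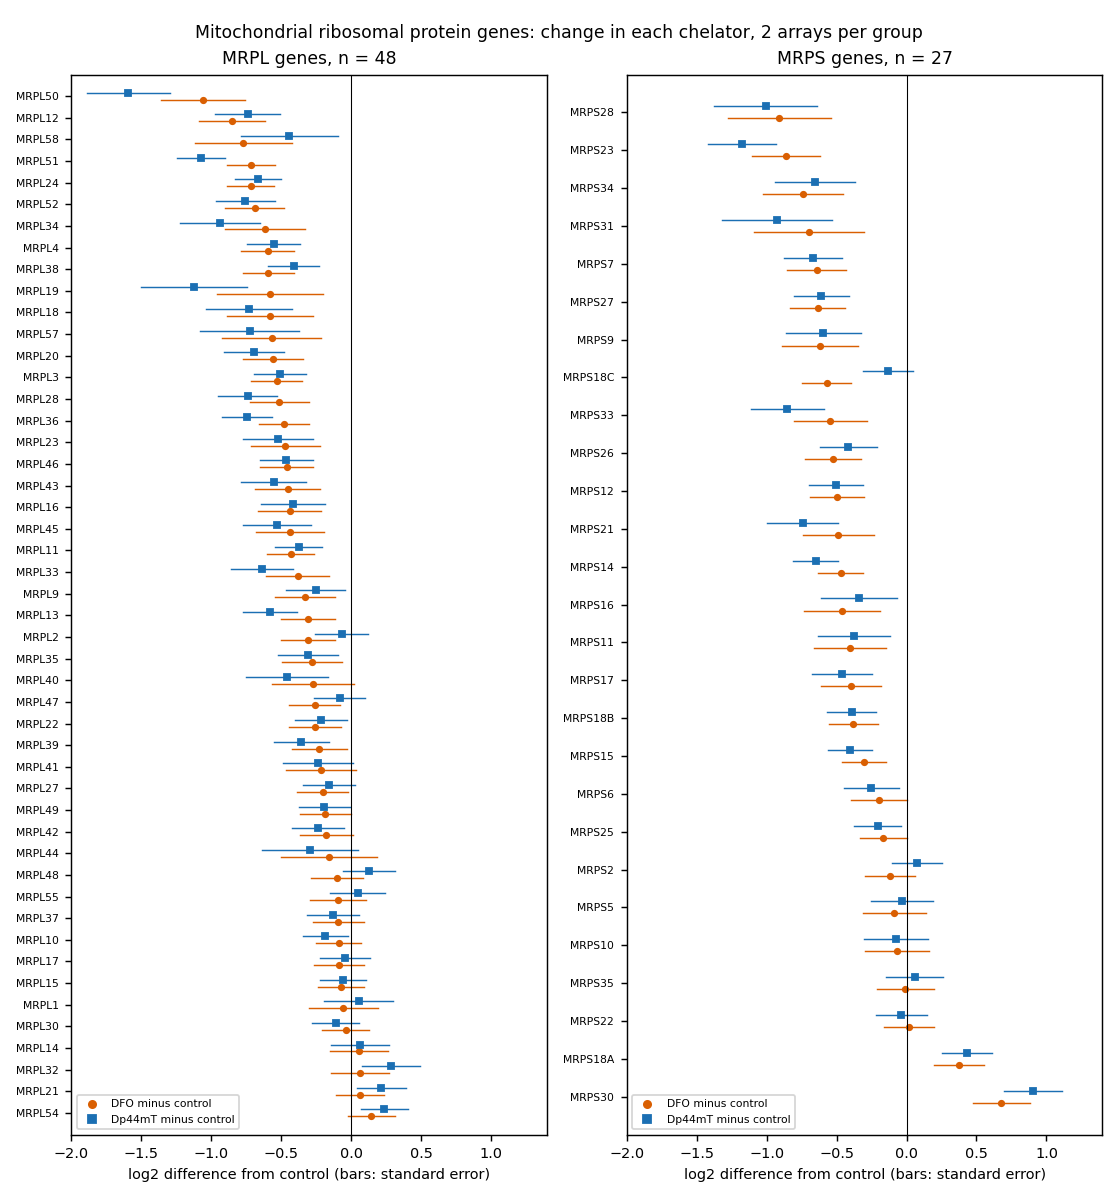
Log2 difference from control of each MRPL gene (left) and MRPS gene (right) in DFO (circles) and Dp44mT (squares), with limma's standard error as bars, from 2 arrays per group. Of the 75 genes 68 lie left of 0 in DFO and 64 in Dp44mT on the quantile normalized scale. MRPS30 lies furthest right in both, and its value turned negative when its probe sets were averaged.

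**Figure D2:**
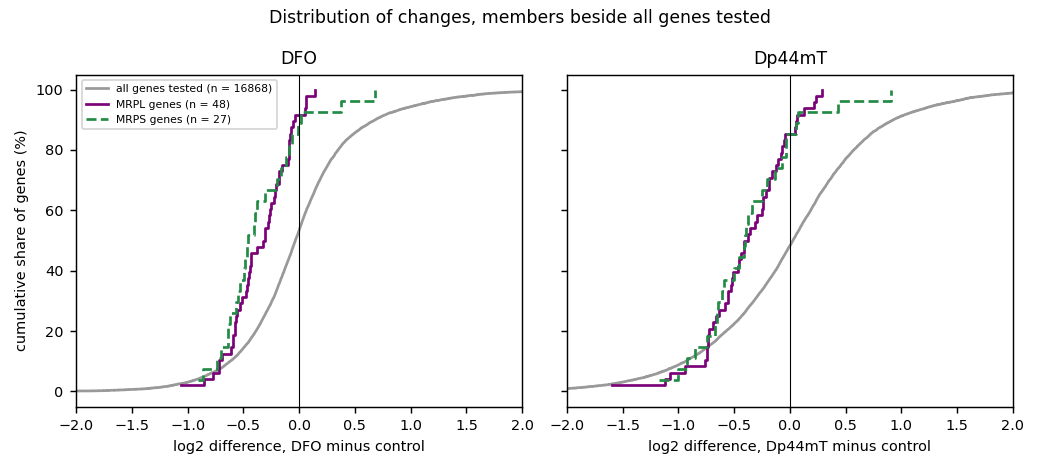
Cumulative share of genes (%) against the log2 difference from control for DFO (left) and Dp44mT (right), drawn for all 16868 genes tested and for the MRPL and MRPS genes. The curves of both subunits cross 50% near -0.3 to -0.5, left of the curve of all genes, which crosses near 0.

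The lowest DFO values came from members of both subunits. MRPL50, a mitochondria-specific subunit, stood at 9.85 and 10.10 in control, 9.16 and 8.67 in DFO and 8.68 and 8.08 in Dp44mT (log2 levels, set 1 then set 2). Every chelator array lay below both control arrays, with set 2 lower than set 1 within each chelator. Its log2 difference in DFO was -1.06 ± 0.30 (SE, n = 2 arrays per group), 2.08-fold, and limma's adjusted p was 0.24. MRPL12, the homologue of the bacterial stalk protein L7/L12, stood at 10.53 and 10.52 in control, 9.72 and 9.63 in DFO and 10.06 and 9.50 in Dp44mT. Its DFO arrays were close together and below both control arrays, with a log2 difference of -0.85 ± 0.23 (SE) and limma's adjusted p of 0.23. MRPS28 stood at 9.83 and 9.79 in control, 9.14 and 8.65 in DFO and 9.28 and 8.32 in Dp44mT, again without overlap between control and either chelator. MRPS34, a mitochondria-specific subunit, had a difference of -0.74 and MRPL58, a peptidyl-tRNA hydrolase related to bacterial release factors, one of -0.77. None of these passed the adjusted test.

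In Dp44mT, 64 of the 75 members (85.3%) had values below control, against 48.3% of all genes, and MRPL51 was the member that passed the test. The count was 74 on the unscaled values, 73 with array medians subtracted and 66 with linear scaling, beside medians over all genes of -0.50, -0.13 and 0.10. On the quantile normalized values the members' median log2 difference was -0.40, a ratio of 0.756. It was 0.03 over all genes and -0.05 over genes in the members' range of level. The members' median was -0.23 between the set 1 arrays and -0.56 between the set 2 arrays. Of the 75 members 54 were lower in both sets, 6 higher in both and 15 opposed, against 6277, 5952 and 4631 of all 16868 genes. Over all genes limma called 1.91% higher and 1.46% lower, so the count of 1 member in 75 is near that background. At an unadjusted p under 0.05 there were 23 members (30.7%), 22 of them lower (29.3%), against 24.1% and 15.9% of all genes. In 49 members (65.3%) both Dp44mT arrays lay below both control arrays, against 33.1% of all genes, and in 5 both lay above, against 30.3%. The pair of control arrays serves both comparisons, so the values of the chelators are not independent of each other.

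MRPL51, a mitochondria-specific protein of the large subunit, stood at 12.02 and 11.83 in control, 11.16 and 11.25 in DFO and 10.85 and 10.86 in Dp44mT. The groups did not overlap, and Dp44mT was the lowest of them. Its deposited intensities were 4570 and 4961 in control, 3061 and 1686 in DFO and 2095 and 999 in Dp44mT. The Dp44mT difference was -1.07 ± 0.17 (SE, n = 2 arrays per group), 2.10-fold, with a limma adjusted p of 0.045, and the DFO difference was -0.72 ± 0.17 with an adjusted p of 0.18. The call was lost when any 1 of the 6 arrays was left out (adjusted p from 0.070 to 0.34) and on the unscaled values (0.17), while over all alternatives the adjusted p ran from 0.0037 to 0.34 and the difference from -1.71 to -0.97. Its probe set carries the suffix Affymetrix gives where some probes may also match other transcripts. A further probe set names both MRPL51 and SPTLC1 and was left out, so the call rests on a single probe set.

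Besides MRPL51, the lowest Dp44mT values were those of MRPL50, MRPS23 and MRPL19. MRPL50 had a log2 difference of -1.59 ± 0.30 (SE), 3.01-fold, with a limma adjusted p of 0.060. MRPS23, a mitochondria-specific protein of the small subunit, stood at 10.03 and 10.08 in control, 9.41 and 8.97 in DFO and 9.08 and 8.68 in Dp44mT. Its chelator arrays all lay below control, and its differences were -0.86 in DFO and -1.17 in Dp44mT (limma adjusted p of 0.24 and 0.071). MRPL19, a homologue of bacterial L19, stood at 9.46 and 9.84 in control, 9.27 and 8.86 in DFO and 9.0 and 8.04 in Dp44mT. Its set 2 Dp44mT array was the lowest by far, and the Dp44mT difference was -0.46 between set 1 arrays and -1.79 between set 2 arrays. MRPS28 and MRPL34, a homologue of bacterial L34, had Dp44mT differences of -1.01 and -0.94 that did not pass the adjusted test.

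**Figure D3:**
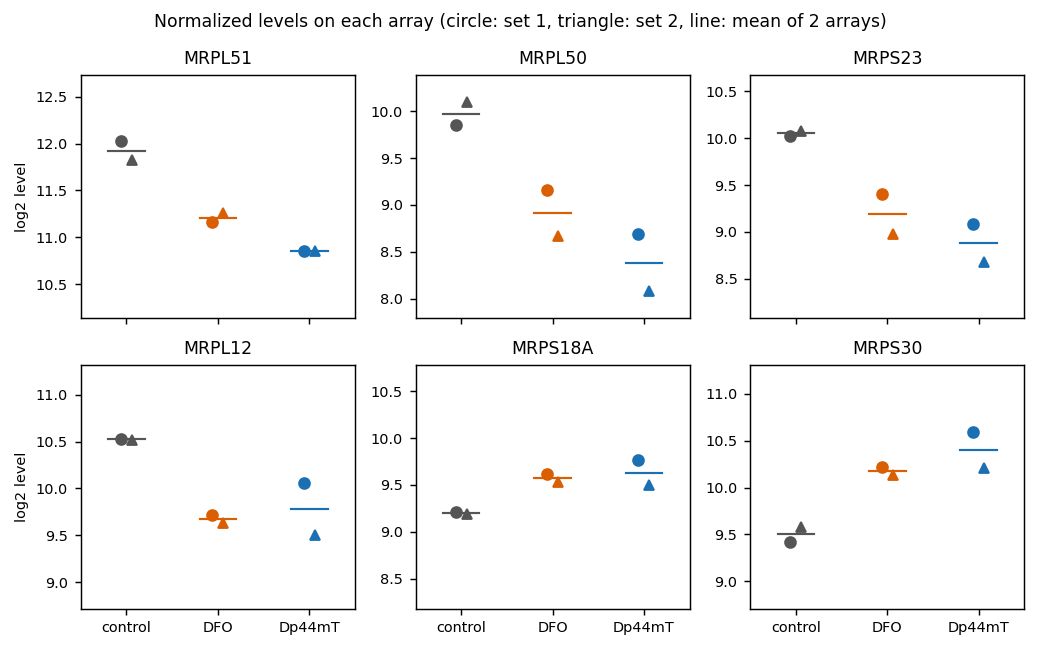
Normalized log2 levels of 6 members on each array (circle, set 1; triangle, set 2; line, mean of 2 arrays), with axes of equal height. MRPL51, MRPL50, MRPS23 and MRPL12 lie lower on every chelator array than on either control array, and MRPS18A and MRPS30 lie higher, which reversed for MRPS30 when its probe sets were averaged and for MRPS18A in Dp44mT on the unscaled values.

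A few members had values above control. MRPS30, which carries an MRPS symbol but sits in the large subunit in structures of the human mitoribosome, stood at 9.42 and 9.58 in control, 10.22 and 10.14 in DFO and 10.60 and 10.21 in Dp44mT. All chelator arrays were above both control arrays. The differences were 0.68 ± 0.21 in DFO and 0.90 ± 0.21 in Dp44mT (SE, n = 2 arrays per group), with limma adjusted p of 0.27 and 0.084. Its other 2 probe sets went the opposite way, with -0.54 and -0.42 in DFO and -0.81 and -0.85 in Dp44mT, and the average of the probe sets gave -0.09 and -0.25. The direction for MRPS30 therefore depends on the probe set.

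MRPS18A, also a protein of the large subunit by structure, stood at 9.21 and 9.19 in control, 9.61 and 9.54 in DFO and 9.77 and 9.50 in Dp44mT. Its chelator arrays did not overlap control, with differences of 0.38 and 0.43 that did not pass the test (limma adjusted p of 0.46 and 0.22), and the Dp44mT value was -0.28 on the unscaled scale. A second probe set gave 0.21 and 0.09. MRPL54, a mitochondria-specific protein, had values of 0.14 and 0.24, MRPL32, which is matured by a mitochondrial inner membrane protease, 0.06 and 0.29, and MRPL21 0.06 and 0.22. MRPL14 had 0.05 and 0.06, and MRPL48 -0.10 and 0.13. The values of MRPL14, MRPL21, MRPL32 and MRPL54 in both chelators and of MRPL48 in Dp44mT were below 0 on the unscaled values, so no direction is given for them.

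The large and the small subunit had nearly the same values in Dp44mT, and in DFO the difference between their medians was small, was not tested and did not hold in every setting. In DFO 44 of 48 MRPL genes and 24 of 27 MRPS genes were below control, with medians of -0.32 and -0.46. The MRPL median minus the MRPS median was 0.14, and it was 0.11 between set 1 arrays and 0.05 between set 2 arrays. In Dp44mT 41 of 48 and 23 of 27 were below control, with medians of -0.39 and -0.40 and a difference of 0.01 (0.02 in set 1 and 0.00 in set 2). With MRPS18A and MRPS30 moved to the large subunit, where structures place them, the differences were 0.16 and 0.05. Then 24 of the 25 small subunit genes were below control in DFO and 23 of 25 in Dp44mT. When the probe sets of a gene were averaged, the DFO difference was -0.00, and without the set 1 control array it was 0.02.

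The same comparison on each array used the median level of the MRPL genes minus that of the MRPS genes. It was 0.32 and 0.32 in control, 0.32 and 0.36 in DFO and 0.30 and 0.27 in Dp44mT. Both Dp44mT arrays were below both control arrays by at most 0.06, and the DFO arrays lay on either side of control, with a pooled SD of 0.02 between arrays of a group. With 2 arrays in each group the smallest two-sided p of an exact permutation test is 0.33, so no test was made. The median level of all members was 10.14 on each control array, 9.91 and 9.69 in DFO and 10.02 and 9.65 in Dp44mT.

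**Figure D4:**
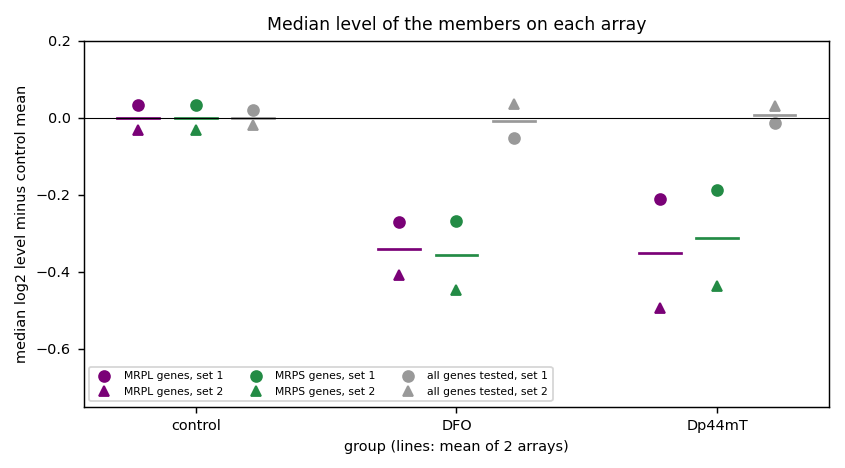
Median log2 level of the MRPL genes, the MRPS genes and all genes tested on each array, minus the mean of the 2 control arrays (circle, set 1; triangle, set 2; line, mean). Both subunits lie below control on every chelator array, lower in set 2 than in set 1, while the median of all genes stays within 0.1 of control.

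Members of different evolutionary origin had similar medians. The 46 bacterial homologues had medians of -0.39 in DFO and -0.38 in Dp44mT, with 42 and 39 below control. The 28 mitochondria-specific proteins had medians of -0.41 and -0.41, with 25 and 24 below control. The remaining member was MRPL58.

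The 5 members whose proteins hold the iron-sulfur clusters of the mitoribosome had medians of -0.20 in DFO and -0.21 in Dp44mT, closer to 0 than the medians over all members. None of the 5 passed the test. MRPS6 stood at 9.81 and 9.73 in control, 9.72 and 9.43 in DFO and 9.64 and 9.39 in Dp44mT, and MRPS25 stood at 7.79 and 7.76, 7.69 and 7.54, and 7.51 and 7.63. Both lay below control on every chelator array, by 0.20 and 0.25 for MRPS6 and by 0.17 and 0.21 for MRPS25. MRPS16, which shares a cluster with MRPS25, had -0.46 and -0.34 from the probe set standing for the gene. Its other probe set, also over the floor, gave -0.99 and -1.51. For MRPS25, a further probe set over the floor gave 0.23 and -0.16, and another below the floor gave -0.58 and -0.79. MRPS18A was above control, as given before.

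The MRPS18 family has 3 members that derive from the same bacterial protein, and their values differed. MRPS18C, the family member at the bacterial position of the small subunit, stood at 9.75 and 9.91 in control, 9.22 and 9.30 in DFO and 9.80 and 9.60 in Dp44mT. Its DFO arrays were below control and its Dp44mT arrays overlapped control, with differences of -0.57 and -0.13. MRPS18B had -0.38 and -0.39, against 0.38 and 0.43 for MRPS18A. None of the 3 passed the adjusted test in either chelator.

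The Dp44mT arrays were also set against the DFO arrays, although the doses differ by design. No gene of 16868 passed the test (limma, 0% called), and 718 had an unadjusted p under 0.05, of which 0 were members. The members' median was -0.01, against 0.02 over all genes, with 41 of 75 lower in Dp44mT and a median 95% interval of ± 0.52. MRPL51 had -0.36 (95% interval -0.79 to 0.08) and MRPL50 -0.53 (-1.29 to 0.22), and MRPS18C had 0.44 (-0.01 to 0.89). These intervals hold 0 and also sizeable differences, so the data do not show that the chelators act alike.

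The other genes of mitochondrial translation mostly had lower values too. Of the 4 tested subunits without an MRP symbol, 3 were below control in each chelator. PTCD3, a pentatricopeptide protein of the small subunit, stood at 9.62 and 9.65 in control, 9.05 and 8.96 in DFO and 8.71 and 8.58 in Dp44mT, with no overlap between groups. It fell by 0.99 ± 0.16 in Dp44mT (limma adjusted p of 0.048), a call that was lost when any 1 array was left out (0.075 to 0.40) and on the unscaled values (0.18). DAP3, a GTP-binding small subunit protein also named for cell death, had 0.12 and 0.33, and GADD45GIP1, a large subunit protein, had -0.46 and -0.48, neither of which passed.

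The list of mitochondrial translation factors and related genes, among them LRPPRC, SLIRP, OXA1L and PNPT1, had 16 of 16 genes below control in DFO and 15 of 16 in Dp44mT. The medians of these genes were -0.43 and -0.48, and none was called. In DFO 3 of them (18.8%) had an unadjusted p under 0.05, against 13.3% of all genes, and in Dp44mT 7 (43.8%), against 24.1%. MTFMT, which formylates the initiator methionine, stood at 7.97 and 8.08 in control, 7.41 and 7.76 in DFO and 6.94 and 6.90 in Dp44mT. Its groups did not overlap, and the Dp44mT difference was -1.11 with a limma adjusted p of 0.054. MTIF2, the initiation factor that brings that tRNA to the ribosome, had -0.70 and -0.81, and PNPT1, the mitochondrial polynucleotide phosphorylase, had -0.64 and -0.86.

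Of 23 genes of mitoribosome assembly and rRNA modification, 18 were below control in DFO and 15 in Dp44mT, with medians of -0.30 and -0.14. TRMT61B, a mitochondrial RNA methyltransferase, stood at 8.44 and 8.47 in control, 7.27 and 6.82 in DFO and 6.60 and 6.0 in Dp44mT. The groups did not overlap, and it fell by 2.16 ± 0.28 in Dp44mT, 4.47-fold (limma adjusted p of 0.029). DDX28, an RNA helicase of large subunit assembly, had -1.12 and -1.40, and RBFA, a small subunit assembly factor, had -0.72 and -0.65, neither called. Of 18 tRNA synthetase genes 16 and 15 were below control, with medians of -0.23 and -0.30. MARS2, the mitochondrial methionyl-tRNA synthetase, stood at 8.0 and 8.17 in control, 7.07 and 6.76 in DFO and 6.58 and 6.64 in Dp44mT, and fell by 1.47 ± 0.19 in Dp44mT (limma adjusted p of 0.030). The calls of TRMT61B and MARS2 were kept without either DFO array and lost without any 1 of the control or Dp44mT arrays (adjusted p up to 0.30 and 0.32), and both were lost on the unscaled values (0.058 and 0.11).

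Among 14 genes of mitochondrial transcription and its regulators, 9 were below control in DFO and 8 in Dp44mT, with medians of -0.05 and -0.16. PPARGC1A, the coactivator known for driving mitochondrial gene programmes, stood at 6.08 and 5.98 in control, 7.95 and 7.93 in DFO and 7.22 and 7.37 in Dp44mT. All chelator arrays were above control, and it rose by 1.91 ± 0.17 in DFO and by 1.27 ± 0.17 in Dp44mT (limma adjusted p of 0.018 and 0.030). Both calls were lost when any 1 array was left out (0.056 to 0.34) and on the unscaled values (0.59 and 0.43). No other gene of this list was called.

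Related families of large complexes had medians nearer 0. The 60 cytosolic ribosomal protein genes had medians of -0.01 in DFO and 0.03 in Dp44mT, with 32 and 25 below control and none called. RPL22L1, a paralogue of RPL22, had 0.96 and 1.22, and RPL7L1 -0.72 and -0.74. The 33 nuclear genes for subunits of respiratory complex I had medians of -0.09 and -0.12, with 20 below control in each chelator and none called. NDUFV2, an iron-sulfur subunit of complex I, had -0.39 and -0.61. The differences between these medians and those of the members were not tested.

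Of 65 further probe sets of 37 members, 49 had the sign of the probe set standing for the gene in DFO and 46 in Dp44mT, and 4 and 8 had the opposite sign with a size over 0.5. Over all 140 probe sets, 121 were below control in DFO and 110 in Dp44mT, and with each of the 133 that passed the floor tested on its own none was called. MRPL50's second probe set gave -1.28 and -1.86, near its first. MRPS31 had -0.70 and -0.92 from the probe set standing for the gene and -0.36 and -0.64 from another, but 0.73 and 1.31 from its remaining one. The other members with such opposed probe sets were MRPS30, MRPL47, MRPS5 and, in Dp44mT, MRPL41, of which MRPL47, MRPS5 and MRPL41 were named after their values were seen. MRPL47 had -0.26 and -0.08 from the probe set standing for the gene and 1.62 and 1.74 from its other one. The deposited intensities of that other one were 221, 235 and 160 in set 1 (control, DFO, Dp44mT) and 60, 442 and 475 in set 2. For the remaining MRPS31 probe set they were 109, 82 and 106 in set 1 and 58, 154 and 201 in set 2. The large rises of both were thus in set 2, where the control array was the lowest.

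By mean level over the 6 arrays the members ran from 7.65 for MRPS25 to 11.58 for MRPS35, and the probe sets differ, so levels of different genes are not set against each other. Among the members at the bright end, MRPS35 had -0.01 and 0.06, MRPL42 -0.18 and -0.24, and MRPL3, a homologue of bacterial L3, -0.53 and -0.51. MRPL44, an RNase III-like protein near the dim end, had -0.16 and -0.29, with set 1 above control (0.22 and 0.14) and set 2 below (-0.54 and -0.72).

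Many members begin close to another gene on the opposite strand. A start on the other strand within 1000 bases was listed for 21 of 67 members (31.3%), against 18.3% of protein-coding genes. MRPL46 and MRPS11 are each other's partner, with -0.46 and -0.46 for the first and -0.41 and -0.38 for the second. Of the 14 tested partners that are not members themselves, 12 were below control in DFO and 11 in Dp44mT, with medians of -0.39 and -0.44. Over all genes 53.5% and 48.3% were below control. Of all 16 tested partners 2 were called lower in Dp44mT, against 1.46% of all genes. NCAPD2, a condensin subunit and the partner of MRPL51, fell by 1.37 in Dp44mT (limma adjusted p of 0.046), and MITD1, a partner of MRPL30, fell by 1.41 (0.042), while MRPL30 itself had -0.11. Both partners were named after their values were seen, and both calls were lost when any 1 array was left out (0.067 to 0.37) and on the unscaled values (0.12 and 0.11). PSMA2, a proteasome subunit that pairs with MRPL32, had -0.12 and -0.17, and FAU, which pairs with MRPL49, had 0.09 and 0.11, against -0.18 and -0.19 for MRPL49. The partner with the largest changes was PPP1R10, beside MRPS18B, with -1.70 and -2.08, neither called. HELQ, beside MRPS18C, had 0.05 and 0.74, against -0.57 and -0.13 for MRPS18C. PPP1R10 and HELQ were also named after their values were seen.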

How the data were processed

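Total RNA of 6 DMS-53 samples was measured on Affymetrix U133 Plus 2.0 arrays, 2 each for control, DFO and Dp44mT. The authors deposited linear intensities per probe set. The submitters' processing notes name Affymetrix Expression Console 1.1; summarization and normalization are not given in the sources used here. The number of arrays limits the precision.

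Here log2(intensity + 16) was quantile normalized over the 6 arrays. Single-symbol probe sets were used, a gene was its probe set with the highest mean, and genes with a mean under the 25th percentile of all probe sets (5.55) were left out, which left 16868 genes. Groups were compared with limma 3.58.1 in R 4.3.3 (moderated test, two-sided, 3 groups in 1 model, 3 residual and 2.22 prior degrees of freedom), and a gene was called at a Benjamini-Hochberg adjusted p under 0.05. Log2 differences are between group means of these normalized values, made from the deposited intensities, and the pseudocount shrinks those of dim genes. Lists are described by counts and medians with no test.

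Named members were those called, the 6 highest and 6 lowest of each chelator, the iron-sulfur and MRPS18 members, MRPL12, those with the 3 highest and 3 lowest mean levels, and those with probe sets over 0.5 and under -0.5 in the same comparison. Of each other list up to 3 genes were named, those called or else those with the smallest p. The members and lists were chosen with earlier results of these data known. Alternatives covered array scaling, pseudocount, filter, probe set handling, variance prior, replicate block and arrays left out. The same alternatives were run for 8 called genes outside the members, a choice made after seeing the data.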

Additional observations from a re-analysis of the deposited data

How the results depend on the processing

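The members' median stayed below 0 against control in both chelators under every alternative run. On the unscaled values it was -0.76 in DFO, -1.10 in Dp44mT and -0.33 for Dp44mT minus DFO, beside medians over all genes of -0.32, -0.50 and -0.24, and with array medians subtracted it was -0.72 in Dp44mT, beside -0.13. The count of members called is fragile. For Dp44mT it was 0 on the unscaled values, with array medians subtracted, with linear scaling, with a pseudocount of 1, without the filter, with each probe set on its own, with only the 2 groups compared and without both set 2 chelator arrays, and 0 with each array left out in turn. It was 2 with the filter at the median, 3 with a pseudocount of 64, 7 with a variance trend (MRPS30 higher) and 31 without both set 1 chelator arrays (MRPS30 higher), a fit with 1 chelator array per group. The last 2 are 9.33% and 41.3% of members, against 7.49% and 40.4% of all genes. For DFO they gave 1 (1.33%, against 2.37%) and 7 (9.33%, against 17.5%). The cause was not tested.

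The large minus small difference in DFO (0.14) was 0.11 on the unscaled values and with medians subtracted, 0.12 with linear scaling, -0.0025 with probe sets averaged, 0.064 with each on its own, 0.071 without both set 2 and 0.085 without both set 1 chelator arrays, and 0.018 to 0.16 with each array left out. In Dp44mT (0.010) it was -0.044 with probe sets averaged, 0.055 without both set 2 and 0.080 without both set 1 chelator arrays, 0.051 by structure and 0.010 to 0.080 with each array left out. For Dp44mT minus DFO (-0.0050) it was 0.041 with probe sets averaged, -0.049 without both set 2 chelator arrays and -0.041 to 0.046 with each array left out.

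Reversals in DFO on the unscaled values were MRPL14 (-0.35), MRPL21 (-0.36), MRPL32 (-0.35) and MRPL54 (-0.19), with medians subtracted MRPL14 (-0.12), MRPL21 (-0.13) and MRPL32 (-0.12), with linear scaling MRPL21 (-0.0060) and MRPL32 (-0.00018), and with probe sets averaged MRPS30 (-0.095). Without both set 1 chelator arrays MRPL32 had -0.054, and without both set 2 ones MRPL44 had 0.16, MRPL48 0.0023 and MRPS35 0.11. With each array left out, values ran from -0.0053 to 0.11 for MRPL14, -0.043 to 0.17 for MRPL21, -0.054 to 0.18 for MRPL32, -0.48 to 0.16 for MRPL44, -0.21 to 0.0023 for MRPL48 and -0.13 to 0.11 for MRPS35. In Dp44mT the unscaled values were -0.65 for MRPL14, -0.49 for MRPL21, -0.42 for MRPL32, -0.57 for MRPL48, -0.46 for MRPL54, -0.28 for MRPS18A and -0.60 for MRPS35. With medians subtracted they were -0.28, -0.12, -0.043, -0.20 and -0.089 for the first 5 and -0.23 for MRPS35. MRPS30 was -0.25 with probe sets averaged, MRPL14 -0.15 and MRPS35 -0.098 without both set 1 chelator arrays, and MRPL44 0.078 without both set 2 ones. With each array left out, values ran from -0.15 to 0.27 for MRPL14, -0.66 to 0.078 for MRPL44 and -0.098 to 0.21 for MRPS35.

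Set numbers did not pair all groups: same-set chelator arrays deviated together and control arrays did not. The deviations correlated at -0.25 for control and DFO, -0.35 for control and Dp44mT and 0.84 for DFO and Dp44mT. With the set number as a replicate block, 0 members were called in DFO, 1 (MRPL51) in Dp44mT and 0 for Dp44mT minus DFO (0 of all genes), and over all genes 151 higher and 18 lower in DFO and 389 and 520 in Dp44mT, against 175 and 10, and 323 and 246, without it. Alternative values were counted for the members named by rule, against control, and for the calls of genes outside the members. Of these values 1017 kept their side of the threshold, 113 lost a call, 25 gained one and 42 reversed. Other named genes are not in these counts.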

Other observations

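Among the lists beside the mitochondrial ribosomal proteins, that of the neuroendocrine markers held a pair of called genes. INSM1, a transcription factor of neuroendocrine cells, fell by 2.21 in DFO and by 3.37 in Dp44mT on the log2 scale, and ENO2, the neuronal enolase, rose by 1.74 and by 2.03 (limma adjusted p of 0.040, 0.012, 0.028 and 0.014). With each array left out in turn, the DFO calls of both were lost every time (adjusted p up to 0.40 and 0.39), and the Dp44mT calls were kept only without either DFO array. On the unscaled values INSM1 kept its Dp44mT call (adjusted p of 0.015), and the other 3 calls were lost (0.24 to 0.93). The other 11 tested neuroendocrine markers were not called in either chelator. Of all 13 tested, 9 were below control in DFO and 11 in Dp44mT.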
